A study of Homo sapiens with 16 samples.

Results

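The genes described here are the ATF4 amino acid response and the cytosolic aminoacyl-tRNA synthetases, 49 genes chosen by symbol from the 23354 genes of the count table. All 49 were in the table, 47 of them passed the filter on low counts, and those 47 were tested together with the other genes that passed, 14215 in all. They comprise 7 regulators, 10 enzymes of amino acid and one-carbon metabolism, 5 amino acid transporters, 6 stress and growth effectors, and 21 genes of tRNA charging, of which 20 encode synthetase subunits under their older symbols without a final digit. NUPR1 and STC2 failed the filter, with at most 0.0453 and 0.219 CPM in any library (CPM are counts scaled to the library total, here with trimmed mean of M values, TMM, factors), and nothing more is said of them.

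The RNA-seq compared the myeloma cell lines MM1S, which is glucocorticoid sensitive, and MM1R, which is glucocorticoid resistant. Each line received vehicle (Veh), 0.1 μM TAK-981, an inhibitor of the SUMO-activating enzyme, 1 μM dexamethasone (Dex), a synthetic glucocorticoid, or both drugs (combo) for 48 h. There were 2 libraries in each of the 8 groups, from total RNA depleted of ribosomal RNA, and treatment was in duplicate. The labels do not say whether duplicates were separate cultures, so the p-values measure only the spread between these samples, which may be technical.

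The total count per library was 15707587 to 20644510 in MM1S and 18987739 to 24796539 in MM1R. The plasma cell genes SDC1, TNFRSF17, PRDM1, XBP1, IRF4 and MZB1 were at 146 CPM or more in every library and CD38 at 6.74 to 44.9 CPM, while the B cell genes MS4A1 and PAX5 did not pass 0.542 CPM, although the labels also call the cells B lymphoblasts. CD3E, the highest of the T cell, myeloid and stromal genes examined, reached 5.33 CPM. Duplicates differed by more than counting noise in all 8 groups. Their chi-square statistic over its degrees of freedom was 2.15 to 22.6, and it was largest for the TAK-981 and Dex groups of MM1S. The nuclear RNA MALAT1 took 2.85% to 3.47% of counts in libraries without TAK-981 and 5.22% to 6.17% in libraries with it, and its part in the results below was not tested. The libraries are bulk RNA, in which a fall in some cells and a fall in all cells cannot be told apart.

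ATF4 is a basic leucine zipper transcription factor whose mRNA is translated when eIF2 is phosphorylated, as happens when amino acids run short or the endoplasmic reticulum is stressed. With partners of the C/EBP family it activates genes for amino acid synthesis, amino acid import and tRNA charging. Plasma cells and myeloma cells make large amounts of immunoglobulin and so depend on amino acid supply. The measurements here are of mRNA, and ATF4 activity itself was not measured.

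The site at which ATF4 and its partner bind, the C/EBP-ATF response element (CARE), has the core TGATGNAA. It was searched on both strands from 250 bases before to 50 bases after the start of each gene, in promoter sequences of RefSeq (GRCh38.p14), because many members moved together. Of the 39 members with an entry, 9 held the core (23.1%), against 1003 of all 27305 promoters (3.67%). The members were chosen as genes of the ATF4 response and synthetases, so a higher share among them is not a result of these data. The 9 were ASNS, SLC3A2, CHAC1, AARS, CARS, IARS, MARS, NARS and TARS, so 6 of them encode synthetases. NUPR1, PSPH, SHMT2, PYCR1, SLC7A11, EIF4EBP1, DARS, LARS, VARS and YARS had no entry. The 8 windows that lay inside the searched region follow, each of 30 bases on the strand of its gene, read 5′ to 3′, with the match in capitals. They are shown for their letters, and their likeness is no result, since the search fixed every base of the core but the N. Synthetases with no match or no entry could not appear. The window of SLC3A2 ran past the searched region, and its match was TTACATCA. A match is a description of the letters and not evidence of binding.
ASNS, minus strand, chr7:97872458-97872487: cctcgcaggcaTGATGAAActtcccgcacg
CHAC1, plus strand, chr15:40953251-40953280: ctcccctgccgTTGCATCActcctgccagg
AARS, minus strand, chr16:70289675-70289704: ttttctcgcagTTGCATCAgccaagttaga
CARS, minus strand, chr11:3057407-3057436: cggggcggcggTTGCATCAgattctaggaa
IARS, minus strand, chr9:92293692-92293721: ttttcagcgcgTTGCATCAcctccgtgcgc
MARS, plus strand, chr12:57488053-57488082: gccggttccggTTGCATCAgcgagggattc
NARS, minus strand, chr18:57621804-57621833: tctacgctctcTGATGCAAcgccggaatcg
TARS, plus strand, chr5:33440956-33440985: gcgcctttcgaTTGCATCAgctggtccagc
Of these 8 windows, all but that of ASNS carried the form TTGCATCA or its reverse complement TGATGCAA. The E-box CACGTG, a motif read by MYC among other factors, was in 4 of the 39 member promoters (10.3%) and in 2030 of the 27305 (7.43%). Those members were ATF4, ALDH18A1, SLC7A5 and IARS, and the E-box and CARE matches of IARS did not overlap.

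Most members fell with TAK-981 in both lines. In MM1S, 32 of the 47 tested members were lower and 2 were higher than in Veh at an adjusted p under 0.05 (edgeR quasi-likelihood test, Benjamini-Hochberg adjustment over all 14215 genes), where 23.7% of all genes were lower and 25.2% higher. In MM1R, 36 were lower and 1 was higher, where 27.6% of all genes were lower and 25.8% higher. The median log2 fold change of the members was -0.39 in MM1S and -0.44 in MM1R, against 0.04 and 0.00 for all genes. The members' share of all counts was 0.539% and 0.542% in the Veh libraries of MM1S and 0.372% and 0.39% in those with TAK-981. In MM1R it was 0.633% and 0.638% with Veh and 0.434% and 0.439% with TAK-981. Neither line's groups overlapped in this share.

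**Figure D1:**
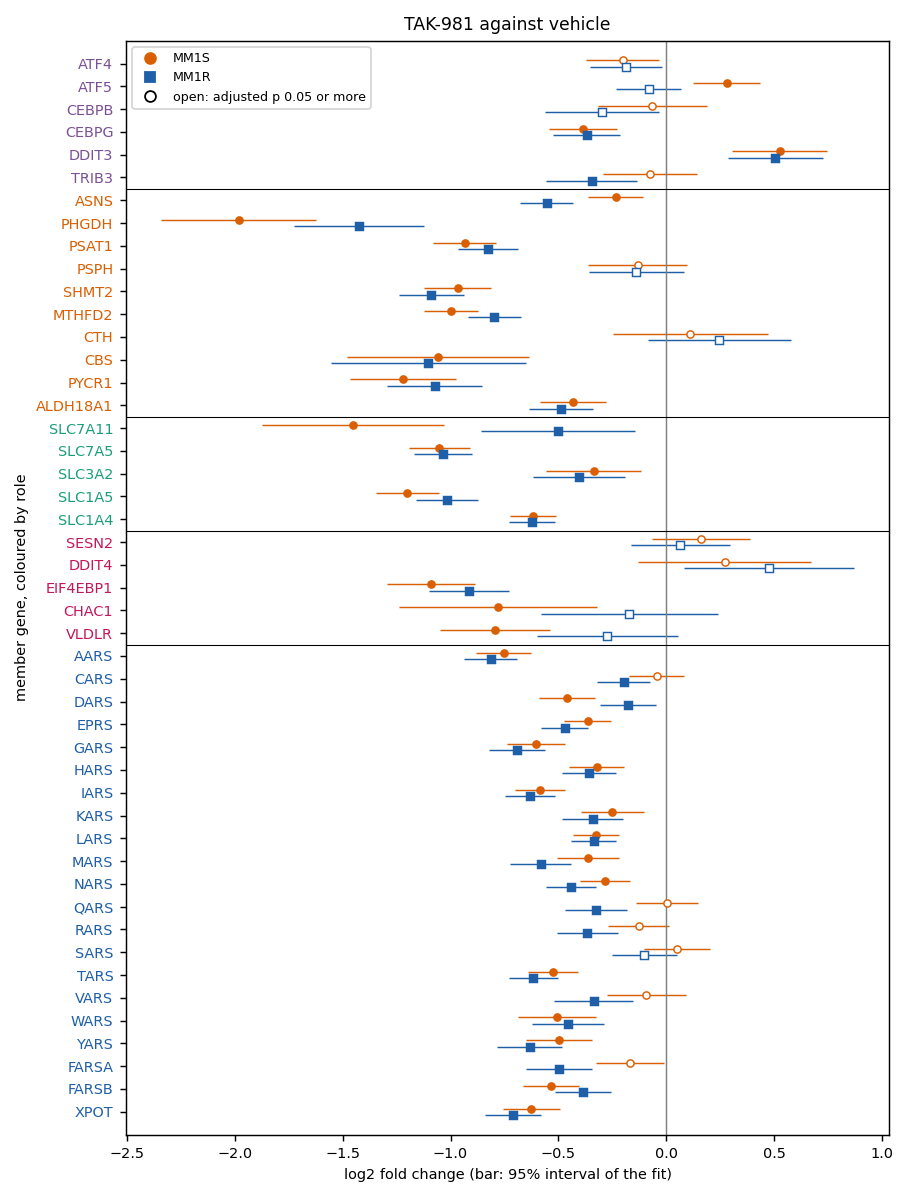
Log2 fold change of TAK-981 against vehicle (x axis) for the 47 tested members (y axis, grouped and coloured by role), in MM1S (circles) and MM1R (squares). Bars are 95% intervals of the fit (1.96 standard errors) and open symbols mark an adjusted p of 0.05 or more; filled symbols lie left of 0 except DDIT3, at 0.52 and 0.50, and ATF5 in MM1S, at 0.28.

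Among the regulators the picture was mixed. ATF4 (hg19 chr22:39916569-39918691, plus strand) stood at 159 and 178 CPM in MM1S with Veh and at 131 and 163 CPM with TAK-981. These groups overlapped, and the log2 fold change was -0.20 (SE 0.0857, adjusted p = 0.0586). The adjusted p ran from 0.000458 to 0.606 over the alternative settings. Without the second TAK-981 library the value was -0.37 (adjusted p = 0.000458), and without the first Veh library it was -0.28 (adjusted p = 0.041). Without the first TAK-981 library it was -0.053 (adjusted p = 0.606), and without the second Veh library -0.12 (adjusted p = 0.38). In MM1R, ATF4 was at 175 and 174 CPM with Veh and at 152 and 154 CPM with TAK-981. The duplicates there were closer together and the groups did not overlap, with a log2 fold change of -0.19 (SE 0.0853, adjusted p = 0.0708). The call in MM1R turned with either TAK-981 library of MM1S left out, the value then being -0.19 both times (adjusted p = 0.013 and 0.0125).

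CEBPG, a C/EBP partner of ATF4, fell in both lines. It was at 45.8 and 44.8 CPM in MM1S with Veh and at 36.2 and 33.1 CPM with TAK-981 (log2 fold change -0.39, SE 0.0801, adjusted p = 0.000582). In MM1R it went from 43 and 45.4 CPM to 34.9 and 33.5 CPM (-0.37, adjusted p = 0.000751). DDIT3, which encodes the stress factor CHOP, moved the other way. Its libraries were at 8.65 and 8.66 CPM with Veh and at 11.7 and 13.2 CPM with TAK-981 in MM1S, a log2 fold change of 0.52 (SE 0.112, adjusted p = 0.000738). In MM1R they were at 8.19 and 7.75 CPM against 11.5 and 11.1 CPM, a log2 fold change of 0.50 (adjusted p = 0.000955). Each TAK-981 library was above each Veh library of its line. DDIT3 overlaps MARS on the opposite strand by 964 bases in the positions of the table (hg19), and whether the counting used strand is not given in the sources used here, so reads of the shared bases may not be told apart; MARS itself fell in both lines. ATF5, another target and relative of ATF4, was at 18.1 and 18.5 CPM in MM1S with Veh and at 22.3 and 22.1 CPM with TAK-981. It rose by a log2 fold change of 0.28 (SE 0.0798, adjusted p = 0.00743), which became 0.26 (adjusted p = 0.0559) without the first Veh library and 0.25 (adjusted p = 0.0931) in a fit of the groups compared alone. In MM1R, ATF5 was at 25.7 and 24.7 CPM with Veh and 23.6 and 23.9 CPM with TAK-981, and no difference was called. ATF5 shares 1030 bases with NUP62 on the other strand. TRIB3, a pseudokinase that ATF4 induces and that restrains it, was at 33.4 and 33.8 CPM in MM1R with Veh and at 26.2 and 26.6 CPM with TAK-981 (log2 fold change -0.35, adjusted p = 0.0108). Its call was lost without the second Veh library or the first TAK-981 library (-0.34 each, adjusted p = 0.0529 and 0.0612). In MM1S its libraries overlapped, at 24.2 and 27.5 CPM against 21.5 and 27.5 CPM. CEBPB, another C/EBP partner, ranged from 8.42 to 15.8 CPM over the 16 libraries and was called in none of the 15 comparisons.

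Most enzymes of amino acid and one-carbon metabolism fell in both lines. In each line 8 of the 10 enzymes were lower with TAK-981 and none was higher. Of all genes, 23.7% were lower in MM1S and 27.6% in MM1R, and 25.2% and 25.8% were higher. The median log2 fold change of the enzymes was -0.95 in MM1S and -0.81 in MM1R, and the exceptions in both were PSPH and CTH. PHGDH (hg19 chr1:120254419-120286849, plus strand), the first enzyme of serine synthesis, was at 21.4 and 27.7 CPM in MM1S with Veh and at 4.82 and 7.57 CPM with TAK-981. This was a fall to 25.3% of Veh (log2 fold change -1.98, SE 0.184, adjusted p = 8.22e-08), with both TAK-981 libraries far below both Veh libraries. MM1R had 36.6 and 35.6 CPM against 12.9 and 14 CPM, or 37.3% of Veh (-1.42, SE 0.154, adjusted p = 7.69e-07). PSAT1, the transaminase of the next step, went from 43.5 and 45.7 CPM to 23.5 and 23.1 CPM in MM1S (-0.93, SE 0.075, adjusted p = 7.56e-09). In MM1R it went from 58.3 CPM in both Veh libraries to 34.5 and 31.3 CPM (-0.83, adjusted p = 2.41e-08). PSPH, the phosphatase of the last step of the pathway, was at 15.3 and 16.6 CPM with Veh and 13.7 and 15.3 CPM with TAK-981 in MM1S, which was not called. PSPH overlaps several expressed genes in the table and has pseudogene copies, so its counts are uncertain. CTH, of the transsulfuration pathway, ranged from 3.29 to 5.27 CPM over the 16 libraries and was called in none of the 15 comparisons.

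SHMT2, which makes glycine from serine in mitochondria, was at 121 and 123 CPM in MM1S with Veh and at 57.9 and 66.7 CPM with TAK-981 (-0.97, SE 0.0795, adjusted p = 1.13e-08). In MM1R it went from 169 and 173 CPM to 80.8 and 79.7 CPM (-1.09, adjusted p = 2.35e-09). MTHFD2, which oxidises mitochondrial folate units, went from 152 CPM in both libraries to 78.3 and 73.6 CPM in MM1S (-0.997, SE 0.0643, adjusted p = 4.53e-10) and from 185 and 188 CPM to 108 and 106 CPM in MM1R (-0.80, adjusted p = 8.21e-09). In none of these did the libraries of a line overlap. Of the proline enzymes, PYCR1 fell by 1.22 on the log2 scale in MM1S and by 1.07 in MM1R, and ALDH18A1 by 0.43 and 0.49. CBS, of the transsulfuration pathway, fell by 1.06 and 1.10 from low levels of 2.85 to 4.05 CPM in the Veh libraries. ASNS, asparagine synthetase, fell by 0.24 in MM1S and 0.56 in MM1R, and the MM1S value was -0.17 (adjusted p = 0.0714) without the second TAK-981 library and -0.26 (adjusted p = 0.0613) in a fit of the groups compared alone.

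All 5 transporters fell in both lines, where 23.7% of all genes were lower in MM1S and 27.6% in MM1R. SLC1A5, the glutamine transporter ASCT2, was at 237 and 258 CPM in MM1S with Veh and at 102 and 113 CPM with TAK-981 (log2 fold change -1.20, SE 0.0742, adjusted p = 2.79e-10). The MM1R libraries were at 343 and 362 CPM against 172 and 176 CPM (-1.02, adjusted p = 2.59e-09). SLC7A5, the light chain of the leucine transporter LAT1, went from 109 and 120 CPM to 52.7 and 57.6 CPM in MM1S (-1.05, SE 0.0719, adjusted p = 9.4e-10). In MM1R it went from 173 and 186 CPM to 86.8 and 88.6 CPM (-1.03, adjusted p = 1.08e-09). Pseudogene copies of SLC7A5 exist, and how reads shared with them were counted is not given. SLC1A4, a transporter of serine and alanine, went from 628 and 640 CPM to 402 and 424 CPM in MM1S (-0.62, SE 0.0548, adjusted p = 2.97e-08), and from 655 and 668 CPM to 421 and 438 CPM in MM1R (-0.62, adjusted p = 3.31e-08).

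SLC7A11 (hg19 chr4:139085248-139163503, minus strand), which imports cystine, was at 7.19 and 11.4 CPM in MM1S with Veh and at 3.32 and 3.45 CPM with TAK-981 (-1.45, SE 0.215, adjusted p = 1.41e-05). MM1R had 9.76 and 8.82 CPM against 7.03 and 6.11 CPM (-0.50, SE 0.182, adjusted p = 0.0266). The MM1R value lost the call without the first Veh library (-0.43, adjusted p = 0.135), without the second TAK-981 library (-0.40, adjusted p = 0.181), and in DESeq2 (-0.51, adjusted p = 0.056). SLC3A2, the shared heavy chain, fell by 0.34 in MM1S and 0.40 in MM1R on the log2 scale. Its MM1S call was lost without the first TAK-981 library (-0.14, adjusted p = 0.241) or the second Veh library (-0.29, adjusted p = 0.112).

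The stress and growth effectors did not move as 1 group. EIF4EBP1, an inhibitor of cap-dependent translation, fell in both lines, from 22 and 24.4 CPM to 10.1 and 11.6 CPM in MM1S (-1.09, SE 0.104, adjusted p = 7.16e-08) and from 32.1 and 34.3 CPM to 17.5 and 17.7 CPM in MM1R (-0.91, adjusted p = 2.23e-07). CHAC1, which degrades glutathione, was at 4.75 and 8.77 CPM in MM1S with Veh and 3.94 and 3.86 CPM with TAK-981 (-0.78, SE 0.233, adjusted p = 0.00972). The spread of the Veh duplicates mattered there, since without the second Veh library the value was -0.28 (adjusted p = 0.31). In MM1R, CHAC1 was at 6.37 and 7.22 CPM with Veh and at 6.87 and 5.22 CPM with TAK-981, and the groups overlapped (-0.17, SE 0.209, adjusted p = 0.51). VLDLR, a lipoprotein receptor, was at 21.8 and 18.1 CPM in MM1S with Veh and 9.49 and 13.5 CPM with TAK-981 (-0.79, SE 0.131, adjusted p = 5.67e-05). In MM1R it was at 6.66 and 6.02 CPM against 5.42 and 5.07 CPM (-0.27, SE 0.167, adjusted p = 0.178). DDIT4, an inhibitor of mTORC1, was at 40.2 and 38.6 CPM in MM1S with Veh and 33.6 and 61.5 CPM with TAK-981 (0.27, SE 0.204, adjusted p = 0.301). In MM1R it was at 39.3 and 36.1 CPM against 52.6 and 52.3 CPM (0.48, SE 0.201, adjusted p = 0.0659). SESN2, which senses leucine upstream of mTORC1, was between 24.9 and 39 CPM in all 16 libraries and was not called in any of the 15 comparisons.

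Of the 20 cytosolic synthetase subunits, 14 were lower with TAK-981 in MM1S and 19 in MM1R, and none was higher. The shares of all genes were 23.7% and 27.6% lower, and 25.2% and 25.8% higher. The median log2 fold change of the subunits was -0.34 in MM1S and -0.41 in MM1R. AARS (hg19 chr16:70286297-70323412, minus strand), which charges alanine tRNA, was at 172 and 184 CPM in MM1S with Veh and at 99.4 and 112 CPM with TAK-981 (-0.75, SE 0.0645, adjusted p = 1.91e-08). The MM1R libraries were at 251 and 249 CPM against 143 and 142 CPM (-0.81, adjusted p = 7.07e-09). IARS, for isoleucine, went from 277 and 266 CPM to 174 and 187 CPM in MM1S (-0.59, SE 0.0602, adjusted p = 2.2e-07) and from 356 and 370 CPM to 235 and 234 CPM in MM1R (-0.63, adjusted p = 8.56e-08). TARS, for threonine, went from 176 and 177 CPM to 118 and 126 CPM in MM1S (-0.53, SE 0.0589, adjusted p = 6.53e-07) and from 207 and 209 CPM to 135 and 136 CPM in MM1R (-0.62, adjusted p = 8.87e-08). XPOT, which exports tRNA from the nucleus, fell from 172 and 161 CPM to 115 and 101 CPM in MM1S (-0.63, SE 0.0669, adjusted p = 3.69e-07) and from 189 CPM in both libraries to 116 and 115 CPM in MM1R (-0.71, adjusted p = 7.36e-08). In each of these the TAK-981 libraries lay below the Veh libraries of the line.

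SARS, for serine, was called in neither line, at 56.9 and 58.2 CPM with Veh and 56.7 and 62.3 CPM with TAK-981 in MM1S. CARS, FARSA, QARS, RARS and VARS were called lower in MM1R and not in MM1S. HARS, KARS, YARS and GARS overlap a neighbour on the other strand by 239 to 907 bases, so their counts could hold reads of it. The 17 mitochondrial synthetases, which are no members, had a median log2 fold change of -0.12 in MM1S, with 7 lower and 0 higher, and of -0.22 in MM1R, with 10 lower and 1 higher. The share of all genes called lower was 23.7% in MM1S and 27.6% in MM1R, and the share called higher was 25.2% and 25.8%.

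The calls of the lines were compared directly. Of the members lower with TAK-981, 30 were called in both lines, which is 93.8% of the 32 in MM1S and 83.3% of the 36 in MM1R, and DDIT3 was called higher in both. The same overlap was not computed over all genes, so it does not show a trait particular to the members. The interaction of line and TAK-981, which tests the difference between the lines, was called for 0 of the 47 members (edgeR), with 11 at an unadjusted p under 0.05, and for 0 in DESeq2 with 9 at an unadjusted p under 0.05. Of all genes 3.19% were called higher and 0.978% lower in this test. The count of members depended on the setting. A fit with a term for the replicate number called 9, and a fit without the filter on low counts called 4. The estimate for PHGDH was 0.56 (95% interval from 0.0872 to 1.03, adjusted p = 0.193), for SLC7A11 0.95 (adjusted p = 0.0637) and for ATF5 -0.36 (adjusted p = 0.0699). For VLDLR it was 0.52 (adjusted p = 0.17) and for CHAC1 0.61 (adjusted p = 0.274). Leaving out single MM1S libraries gave 1 call without the first Veh or the first Dex library, 2 without the second Dex library, 4 without the second TAK-981 library and 6 without the first.

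**Figure D2:**
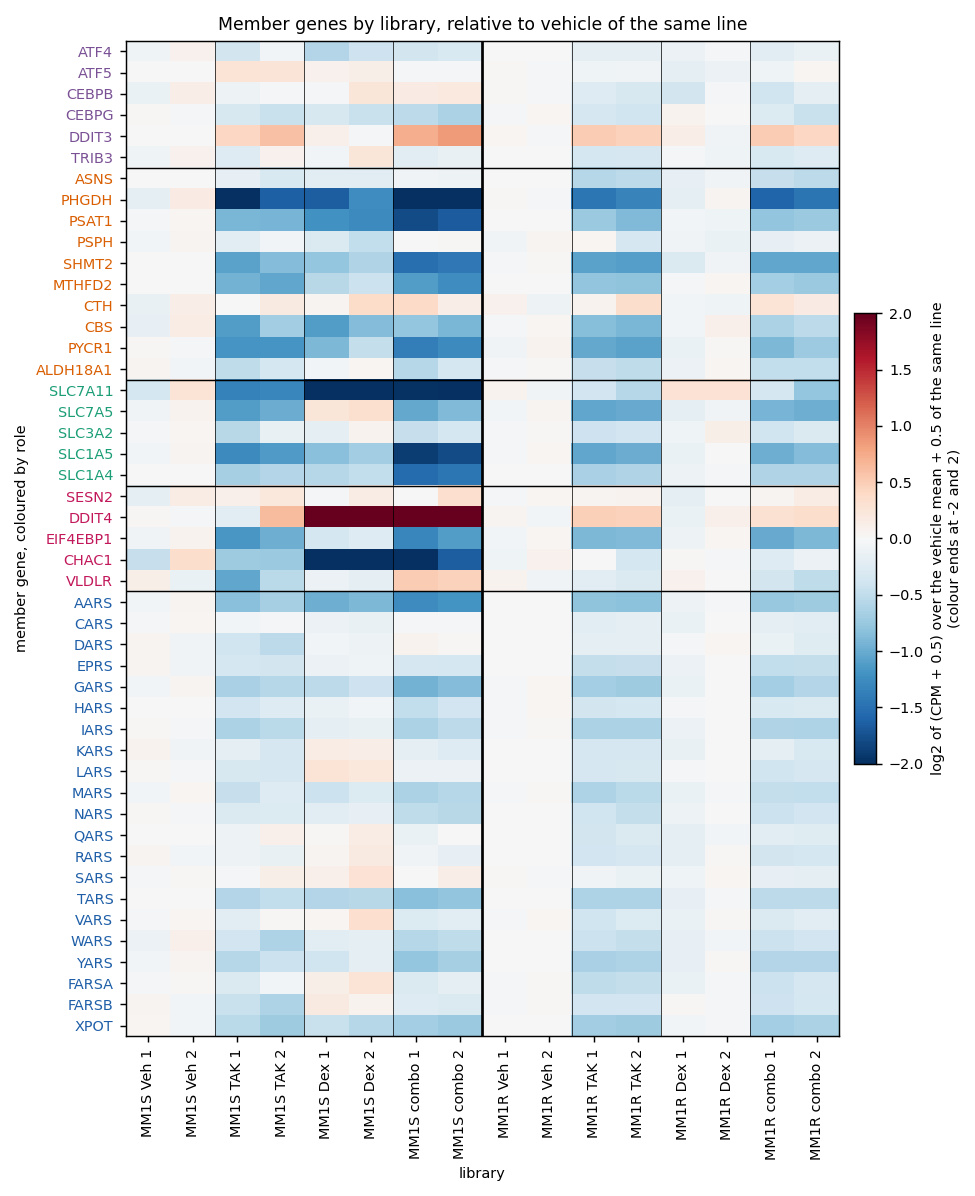
Log2 ratio of each library to the vehicle mean of its line (colour, from blue at -2 to red at 2, computed on CPM + 0.5) for the 47 tested members (y axis, by role) in the 16 libraries (x axis). The TAK-981 and combo columns of both lines are mostly blue, the Dex columns of MM1S are mixed, with DDIT4 red, and the Dex columns of MM1R are near white.

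Dex changed members in MM1S in both directions. There, 23 of the 47 were lower and 5 were higher than with Veh, where 21.5% of all genes were lower and 20.8% higher, and the median was -0.16 against 0.01 for all genes. The 5 higher were DDIT4, SLC7A5, LARS, SARS and FARSA. In MM1R, 0 members and 0% of all genes were called in either direction (edgeR), with 1 member and 395 genes at an unadjusted p under 0.05, and DESeq2 also called 0 members, with 1 at an unadjusted p under 0.05. The log2 fold changes of the members there ran from -0.19 to 0.31.

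DDIT4 (hg19 chr10:74033677-74035797, plus strand) had the largest log2 fold change of the 47 members. It was at 721 and 837 CPM in MM1S with Dex, against 40.2 and 38.6 CPM with Veh, which is 19.8-fold higher (log2 fold change 4.30, SE 0.193, adjusted p = 1.19e-08). In MM1R it was at 34.2 and 40.5 CPM with Dex and 39.3 and 36.1 CPM with Veh, so that the groups overlapped. The interaction of line and Dex was -4.32 (SE 0.28, adjusted p = 4.56e-07). DDIT4 is a known glucocorticoid target as well as an ATF4 target.

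The largest falls with Dex were in cystine import and glutathione breakdown. SLC7A11 was at 1.04 and 1.31 CPM in MM1S with Dex against 7.19 and 11.4 CPM with Veh, or 12.8% of Veh (-2.97, SE 0.3, adjusted p = 3.39e-08). CHAC1 was at 0.933 and 1.16 CPM against 4.75 and 8.77 CPM, or 15.7% of Veh (-2.67, SE 0.343, adjusted p = 1.36e-06). Both genes have low counts, yet the Dex libraries were far below either Veh library. In MM1R with Dex, SLC7A11 was at 11.5 and 11.4 CPM (0.31, SE 0.164, adjusted p = 1) and CHAC1 at 6.95 and 6.68 CPM. The interactions of line and Dex were 3.28 (SE 0.342, adjusted p = 3e-07) for SLC7A11 and 2.67 (SE 0.397, adjusted p = 2.95e-05) for CHAC1.

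With Dex in MM1S, 8 of the 10 enzymes were lower and 0 higher, where 21.5% of all genes were lower and 20.8% higher. This comparison and that of TAK-981 use the same Veh libraries. PHGDH was at 7.46 and 10.1 CPM with Dex (36% of Veh, log2 fold change -1.48, SE 0.171, adjusted p = 2.03e-06). PSAT1 was at 18.9 and 18.2 CPM, lower than with TAK-981 (-1.26, SE 0.077, adjusted p = 2.8e-10). SHMT2 was at 71.3 and 80 CPM (-0.69, adjusted p = 1.17e-06) and MTHFD2 at 103 and 113 CPM (-0.49, adjusted p = 5.2e-06). PSPH was at 12.9 and 11.2 CPM with Dex against 15.3 and 16.6 CPM with Veh (-0.40, SE 0.119, adjusted p = 0.0108). Its call was lost without the second Veh library (-0.35, adjusted p = 0.084) or the second Dex library (-0.31, adjusted p = 0.101). ALDH18A1 at 69.4 and 74 CPM was not called with Dex, and its libraries overlapped those with Veh. In MM1R with Dex these genes stood near their Veh values, for PHGDH at 31.5 and 37.4 CPM and for PSAT1 at 56.3 and 55.2 CPM.

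Transporters separated under Dex. SLC1A5 fell to 139 and 153 CPM in MM1S (-0.77, SE 0.0735, adjusted p = 1.22e-07) and SLC1A4 to 429 and 451 CPM (-0.53, SE 0.0547, adjusted p = 3.37e-07). SLC7A5 instead was at 136 and 143 CPM, above both Veh libraries (0.29, SE 0.0692, adjusted p = 0.00264). Without the first Veh library the SLC7A5 value was 0.22 (adjusted p = 0.0567). SLC3A2, its partner chain, was at 83.8 and 101 CPM with Dex and 93.3 and 99.2 CPM with Veh, and was not called.

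Regulators changed less. ATF4 fell to 112 and 126 CPM with Dex in MM1S, below both Veh libraries (log2 fold change -0.50, SE 0.0862, adjusted p = 0.000118). CEBPG fell to 36.1 and 33.3 CPM (-0.39, SE 0.08, adjusted p = 0.00072). DDIT3, at 9.28 and 8.37 CPM with Dex and 8.65 and 8.66 CPM with Veh, overlapped between the groups and was not called. The interaction of line and Dex was 0.43 for ATF4 (SE 0.121, adjusted p = 0.012), which became 0.35 (adjusted p = 0.0733) without the second Veh library of MM1S. For CEBPG it was 0.42 (SE 0.111, adjusted p = 0.00806). EIF4EBP1 fell with Dex by 0.31 on the log2 scale in MM1S (adjusted p = 0.0146), and without the second Veh library the value was -0.24 (adjusted p = 0.135) and without the first Dex library -0.27 (adjusted p = 0.0823).

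Of the 20 cytosolic synthetases, 7 were lower (35%) and 3 higher (15%) in MM1S with Dex, where 21.5% of all genes were lower and 20.8% higher. AARS was at 90.5 and 95.3 CPM, below both Veh libraries (-0.94, SE 0.0647, adjusted p = 1.52e-09). TARS was at 117 and 120 CPM (-0.57, SE 0.0589, adjusted p = 3.09e-07) and GARS, for glycine, at 98.7 and 107 CPM (-0.47, SE 0.0676, adjusted p = 1.88e-05). XPOT was at 122 and 112 CPM (-0.51, SE 0.0668, adjusted p = 5.87e-06). In the other direction, LARS, for leucine, was at 246 and 235 CPM against 208 and 200 CPM with Veh (0.24, SE 0.0536, adjusted p = 0.00133), and its call was kept in every setting but the one that also needs a log2 change of 1 or more. SARS (0.20, adjusted p = 0.0431) and FARSA (0.21, adjusted p = 0.0446) lost the call in DESeq2 and without any 1 of several libraries. The lowest values, 0.0889 for SARS and 0.115 for FARSA (adjusted p = 0.47 and 0.361), came without the second Dex library. IARS, at 240 and 246 CPM, was lower by 0.16 (adjusted p = 0.0402), and its adjusted p passed 0.05 with any of 10 single libraries left out, its value then ranging from -0.19 to -0.13.

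The synthetases with and without the CARE core in the promoter were set side by side after their values were seen, so these are descriptions. With Dex in MM1S, 5 of the 6 with the core were lower and 0 higher, with a median log2 fold change of -0.28 (range -0.94 to -0.13). IARS was among these 5, and as given above its call was lost with single libraries left out. Of the 10 without the core, 1 was lower, GARS, and 2 were higher, with a median of 0.11. The share of all genes was 21.5% lower and 20.8% higher. Of the 4 synthetases with no promoter entry, 1 was lower and 1 higher. With TAK-981 against Veh the medians were -0.45 with the core and -0.29 without it in MM1S, and -0.60 and -0.38 in MM1R. With TAK-981 on top of Dex the order in MM1S was the opposite, with medians of -0.27 and -0.34, and in MM1R they were -0.41 and -0.30. The same split was made over all members, 9 holding the core and 29 lacking it. There, TAK-981 against Veh in MM1S had nearly equal medians, -0.363 for holders and -0.364 for the rest. For MM1R the holders had -0.555 under TAK-981, while members lacking the core had -0.37. Dex against Veh in MM1S gave -0.217 for holders and -0.00843 for members lacking it. The 9 tested members with no promoter entry had medians of -0.498 with TAK-981 in MM1S and -0.502 in MM1R. With Dex in MM1S their median was -0.311, with 6 lower and 1 higher. Whether they hold the core is unknown, and whether the falls go with the core was not tested. Lacking the core means only that no match lay in the searched bases.

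**Figure D3:**
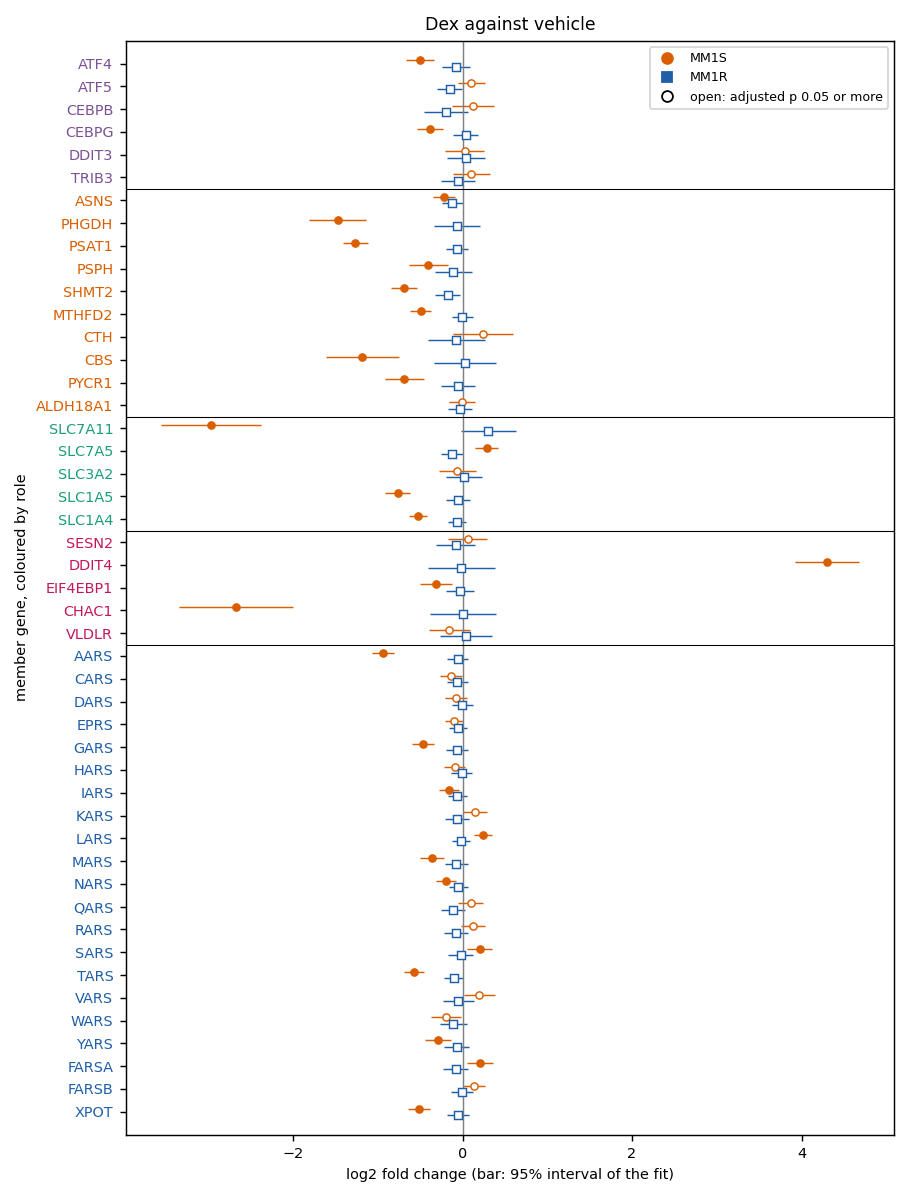
Log2 fold change of Dex against vehicle (x axis) for the 47 tested members (y axis, by role) in MM1S (circles) and MM1R (squares), with 95% intervals of the fit (1.96 standard errors) and open symbols for an adjusted p of 0.05 or more. In MM1S, DDIT4 lies at 4.30 and SLC7A11 at -2.97, and all MM1R symbols are open and between -0.19 and 0.31.

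Over all members, the interaction of line and Dex was called higher for 17 and lower for 3, DDIT4, SLC7A5 and LARS, where 15% of all genes were higher and 13.1% lower. A positive value means that MM1R changed upward relative to MM1S, which for these 17 came with a fall in MM1S and no call in MM1R. AARS had 0.88 (SE 0.0901, adjusted p = 6.37e-07), PSAT1 1.20 (SE 0.103, adjusted p = 7.54e-08), PHGDH 1.41 (SE 0.219, adjusted p = 0.000116) and SLC7A5 -0.41 (SE 0.0968, adjusted p = 0.00391).

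In the combo group of MM1S, 31 members were lower and 3 higher than with Veh, where 29.5% of all genes were lower and 30.8% higher. The 3 higher were DDIT4, DDIT3 and VLDLR. In MM1R 37 were lower and 1 higher, DDIT3, where 26.7% of all genes were lower and 24.8% higher. PHGDH was lowest here, at 2.35 and 2.64 CPM in MM1S, which is 10.2% of Veh (log2 fold change -3.29, SE 0.25, adjusted p = 6.82e-10). PSAT1 was at 12.6 and 13.8 CPM (29.7% of Veh), SLC1A5 at 65.7 and 70.9 CPM (27.6%), SLC1A4 at 217 and 232 CPM (35.4%) and SHMT2 at 42.7 and 45.2 CPM (36.1%). In MM1S the combo libraries of these 5 genes were below every library of the single drugs. DDIT4 was at 1380 and 1440 CPM, or 35.8-fold above Veh (log2 fold change 5.16, SE 0.192, adjusted p = 9.87e-10).

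**Figure D4:**
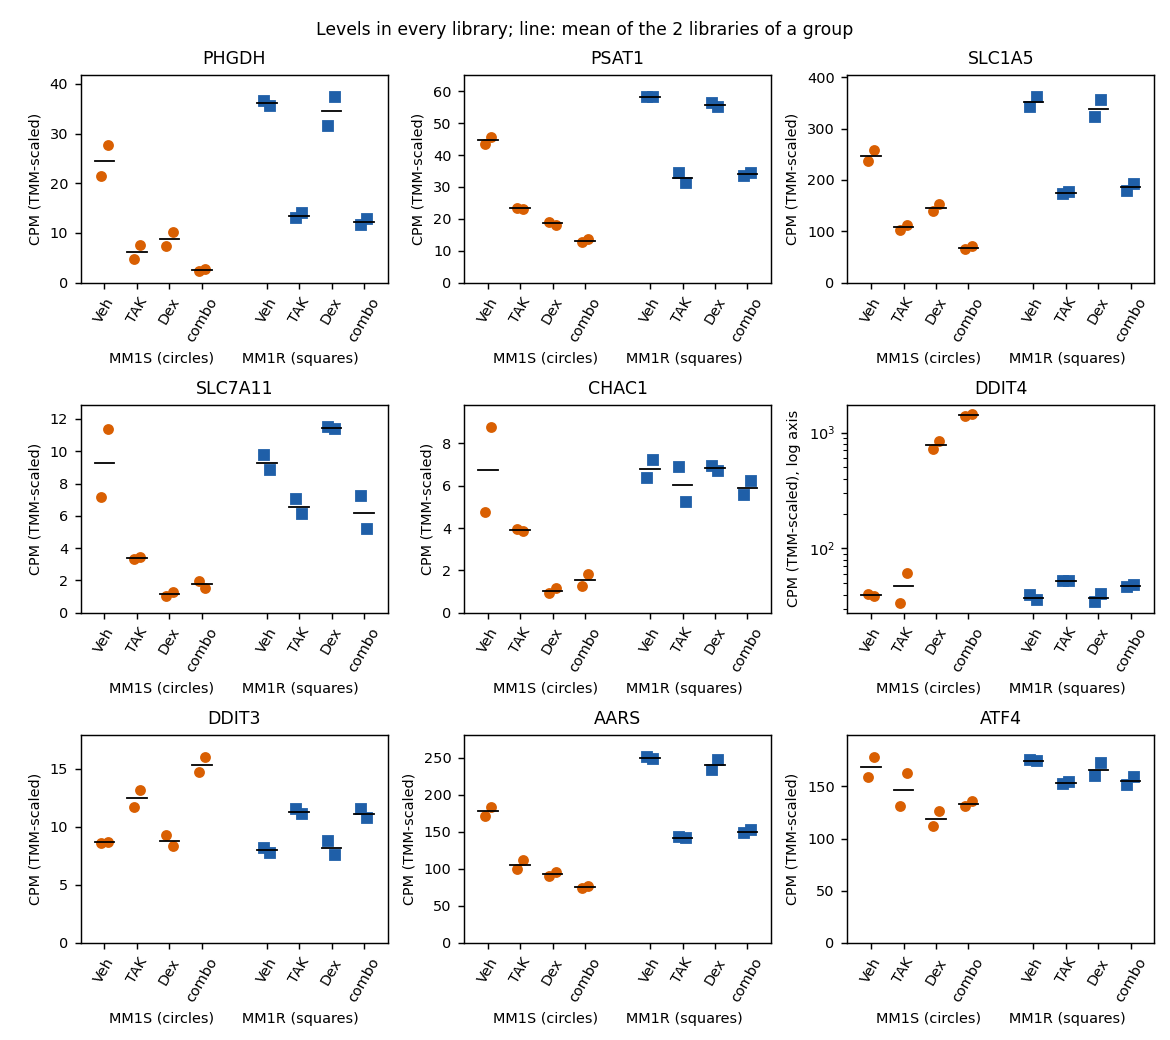
Level of 9 members in every library (y axis, TMM-scaled CPM, log axis for DDIT4), by line and treatment (x axis), with the mean of the 2 libraries of each group as a line. PHGDH, PSAT1 and SLC1A5 are lowest in the MM1S combo libraries, at 2.35 and 2.64 CPM for PHGDH, and DDIT4 is at 721 CPM or more only in the MM1S libraries that received Dex.

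TAK-981 was also compared on top of Dex. Against Dex alone, the combo had 29 members lower and 4 higher in MM1S, where 25.4% of all genes were lower and 22.2% higher, and 32 lower and 1 higher in MM1R, where 25.3% were lower and 23.1% higher. This comparison shares no library with TAK-981 against Veh. Of the members lower with TAK-981 alone in MM1S, 25 were lower again, which is 78.1% of those 32 and 86.2% of the 29. In MM1R 31 were lower in both, or 86.1% of the 36 and 96.9% of the 32. These overlaps, too, were not computed over all genes. The 4 higher in MM1S were DDIT3 (0.80, SE 0.111, adjusted p = 9.92e-06), DDIT4 (0.86, SE 0.178, adjusted p = 0.0021), VLDLR (0.64, SE 0.122, adjusted p = 0.000281) and PSPH (0.42, adjusted p = 0.0085). The PSPH call was lost without the second Dex library (0.32, adjusted p = 0.0953) or the second combo library (0.40, adjusted p = 0.0541).

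Dex on top of TAK-981 gave 15 members lower and 6 higher in MM1S, where 20.6% of all genes were lower and 14.5% higher. A fit of these 2 groups alone called 8 lower and 3 higher. In MM1R, 0 members and 0% of all genes were called (edgeR), with 1 member and 214 genes at an unadjusted p under 0.05, and DESeq2 called 0 members with 0 at an unadjusted p under 0.05. Of the 23 members lower with Dex alone in MM1S, 14 were lower again (60.9% of the 23 and 93.3% of the 15), and DDIT4 and LARS were higher in both. Here also the overlap over all genes was not computed. ATF4 at 131 and 136 CPM in the combo libraries lay within its range of 131 to 163 CPM with TAK-981. VLDLR was at 28.6 and 27.5 CPM against 9.49 and 13.5 CPM with TAK-981 alone (1.28, SE 0.129, adjusted p = 2.51e-07). DARS, for aspartate, was at 94.4 and 90.8 CPM against 67.9 and 62.5 CPM (0.51, SE 0.0665, adjusted p = 8.07e-06), and each combo library was above each TAK-981 library.

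The interaction of TAK-981 and Dex in MM1S, which asks whether the drugs together differ from the sum of their log2 changes, was called higher for 11 members and lower for 2, where 5.47% of all genes were higher and 9.48% lower. Higher were VLDLR (1.44, SE 0.179, adjusted p = 3.07e-05), SLC7A11 (2.02, SE 0.424, adjusted p = 0.0036), DARS (0.59, SE 0.0931, adjusted p = 0.000383) and AARS (0.46, SE 0.0929, adjusted p = 0.00272), among others. A positive value for SLC7A11 means that the combo libraries, at 1.98 and 1.54 CPM, were not as low as the sum of both falls. Lower were SLC1A4 (-0.35, SE 0.0779, adjusted p = 0.00516), whose fall in the combo exceeded that sum, and ATF5 (-0.41, SE 0.115, adjusted p = 0.0237). The ATF5 call was lost in DESeq2 (-0.40, adjusted p = 0.0829) and without either Veh library (-0.39 and -0.42, adjusted p = 0.0857 and 0.0552), the second Dex library (-0.39, adjusted p = 0.083) or either combo library (-0.41 and -0.40, adjusted p = 0.0664 and 0.0548). The SLC1A4 call was lost in a fit of the MM1S groups alone (-0.35, adjusted p = 0.0709). The interaction was 1.33 for CHAC1 (SE 0.476, adjusted p = 0.0675), 0.59 for DDIT4 (adjusted p = 0.176) and 0.37 for ATF4 (SE 0.122, adjusted p = 0.0508). The count of 13 fell to 4 in a fit of the MM1S groups alone, to 7 without the second Veh library and to 8 without the first combo library. In MM1R this interaction was called for 0 members and 0% of all genes (edgeR), with 1 member and 400 genes at an unadjusted p under 0.05, and for 0 members in DESeq2 with 1 at an unadjusted p under 0.05.

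With Veh alone the lines differed. In MM1R 32 members were higher and 2 lower than in MM1S, where 25.6% of all genes were higher and 22.6% lower, and the median log2 fold change was 0.30 against 0.01 for all genes. SLC7A5 was higher by 0.65 (SE 0.0685, adjusted p = 5.15e-07), SLC1A5 by 0.51 (adjusted p = 1.81e-05), PHGDH by 0.56 (SE 0.142, adjusted p = 0.00379) and AARS by 0.49 (adjusted p = 5.33e-06). The PHGDH value was 0.38 (adjusted p = 0.0855) without the first Veh library of MM1S. VLDLR and DARS were lower, VLDLR at 6.66 and 6.02 CPM against 21.8 and 18.1 CPM (-1.66, SE 0.14, adjusted p = 2.4e-08). Of the 20 synthetases 18 were higher and 1 was lower in MM1R. Per kilobase of gene length as the table gives it, the highest members with Veh in MM1S were EPRS at 100 CPM per kb, SLC1A4 at 93.7 and ATF4 at 79.6. In MM1R they were EPRS at 128, SLC1A5 at 108 and SLC1A4 at 97.7 CPM per kb. The lowest of the tested members were SLC7A11 at 0.966 and CBS at 1.09 CPM per kb in MM1S, and CBS at 0.879 and SLC7A11 at 0.964 in MM1R.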

How the data were processed

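The authors deposited 1 table of raw read counts per gene for 16 libraries. The submitters' processing notes name bcl2fastq 2.18.0.12, STAR 2.6.0, HTSeq 0.6.0, edgeR 3.28.1 and hg19, and the strand setting of the counting is not given in the sources used here. Samples were grouped by line and treatment from the labels. Genes were filtered with filterByExpr, scaled by TMM and fitted over all 8 groups with the robust quasi-likelihood model of edgeR 4.0.16 (limma 3.58.1, R 4.3.3; 8 residual degrees of freedom). P-values of 15 contrasts were adjusted by Benjamini-Hochberg over all 14215 genes with a threshold of 0.05, and fitted log2 fold changes have standard errors from the fit. DESeq2 1.42.0 and 6 other settings were alternatives, and each library was left out in turn. On simulated counts for TAK-981 against Veh in MM1S over 14215 genes, 86% of 100 genes changed 1.5-fold and 98% of 100 genes changed 2-fold were called, with 10 false calls. Only these genes were changed, all of them well counted, and every group was given the same spread. The rates may therefore not hold for members with low counts, for the noisier groups or where many genes change. Members and companion lists were chosen with earlier results of these data known, so their counts are descriptions. Genes with values in every library were the 4 members per role with the smallest adjusted p over TAK-981 in either line and Dex in MM1S. Others were named after their values were seen. Positions of the table are hg19, and promoter sequences are RefSeq GRCh38.p14.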

Additional observations from a re-analysis of the deposited data

Results flagged for a closer look

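For 20 members the response to Dex differed between the lines, by the test of the line by Dex interaction in edgeR (log2 scale, MM1R minus MM1S, adjusted over all genes). Of the enzymes, PSAT1 had 1.20, PHGDH 1.41, SHMT2 0.51, MTHFD2 0.49, CBS 1.22 and PYCR1 0.64. Of the transporters, SLC7A11 had 3.28, SLC1A5 0.71, SLC1A4 0.46 and SLC7A5 -0.41. Of the effectors, DDIT4 had -4.32 and CHAC1 2.67. The regulators ATF4 and CEBPG had 0.43 and 0.42. In tRNA charging, AARS had 0.88, TARS 0.47, XPOT 0.46, GARS 0.40, MARS 0.28 and LARS -0.26. The adjusted p ran from 7.54e-08 for PSAT1 to 0.0449 for MARS, whose call was lost in 12 of the fits that leave out 1 library. The LARS call was lost without the second Veh library of MM1S (-0.23, adjusted p = 0.064) or of MM1R (-0.26, adjusted p = 0.0552).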

How the results depend on the processing

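Of 340 member values recomputed under the alternatives, 7169 of 7480 pairs of value and setting kept their direction and side of the threshold, 267 lost the call, 42 gained it and 2 turned direction. DDIT4 with TAK-981 in MM1S was -0.23 without the second TAK-981 library and 0.64 without the first, and CHAC1 with TAK-981 in MM1R was 0.015 and -0.38 in the same order. Neither was called in the fit of all libraries. After a library is left out, the lone sample of its group is assumed to vary like the others.

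Where calls also needed a log2 change of 1 or more in size, the members called fell to 7 for TAK-981 in MM1S, 6 in MM1R and 6 for Dex in MM1S. Combo against Veh then had 12 in MM1S and 2 in MM1R, combo against Dex 3 in MM1S and 1 in MM1R, and combo against TAK-981 in MM1S 4. The line by Dex interaction had 6, the TAK-981 by Dex interaction in MM1S 3, and the Veh libraries of the lines 1, VLDLR, which turned the balance from higher to lower in MM1R. Shares of all genes under this stricter rule were not computed, so these counts cannot be set against a background. Fits of the groups compared alone called 11 for combo against TAK-981 in MM1S and 4 for the TAK-981 by Dex interaction in MM1S, with fewer samples. Without the filter on low counts the line by TAK-981 interaction had 4 calls instead of 0, and the cause was not tested. Leaving out single libraries gave 0 to 6 calls for it and 7 to 14 for the TAK-981 by Dex interaction in MM1S, against 13.

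The labels do not say whether same-numbered libraries of different groups were handled together. Deviations of same-numbered libraries correlated at 0.0162 to 0.263 in MM1S and -0.0134 to 0.0821 in MM1R. The largest in MM1S were 0.263 for the TAK-981 and Dex groups and 0.139 for TAK-981 and combo. Whether a shared batch lay behind them was not tested. With the replicate block, the line by TAK-981 interaction had 9 calls, 3 higher and 6 lower, and no other total of calls moved by over 1.5 times. By direction, the block took Dex in MM1S from 5 to 8 higher, the line by Dex interaction from 3 to 8 lower, the TAK-981 by Dex interaction in MM1S from 2 to 4 lower, and combo against Dex in MM1R from 1 to 2 higher. Counting depth limits SLC7A11, CHAC1, CBS and CTH most.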

Other observations

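A list of 18 other known ATF4 targets lies outside the genes described above, and 15 of them were tested. With TAK-981 11 were lower and 1 higher in MM1S, and 9 lower and 1 higher in MM1R, with medians of -0.38 and -0.52. The share of all genes called lower was 23.7% in MM1S and 27.6% in MM1R, and the share called higher was 25.2% and 25.8%. With Dex in MM1S 10 were lower and 1 higher, with a median of -0.58, where 21.5% of all genes were lower and 20.8% higher. SLC7A1, a transporter of arginine and lysine, was at 71.5 and 80.6 CPM with Veh and at 30.3 and 31.1 CPM with TAK-981 in MM1S (-1.31, SE 0.0822, adjusted p = 2.98e-10). VEGFA, the angiogenic growth factor, was at 80.5 and 73.4 CPM with Veh and at 15.3 and 15.9 CPM with Dex in MM1S (-2.30, SE 0.129, adjusted p = 3.28e-10). ALDH1L2, a mitochondrial folate enzyme, fell by 1.36 on the log2 scale with Dex in MM1S (SE 0.0909, adjusted p = 8.34e-10) and by 1.21 with TAK-981 (adjusted p = 2.67e-09).

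Upstream of ATF4, 15 genes for eIF2 kinases, phosphatase subunits and the exchange factor were tested. With TAK-981, 4 were higher (26.7%) and 8 lower (53.3%) in each line, and with Dex in MM1S 2 were higher (13.3%) and 5 lower (33.3%), beside the shares of all genes given above. Of the 3 scaffolds of the multisynthetase complex, 2 were lower in MM1S and 3 in MM1R with TAK-981, while 1 was higher and 1 lower with Dex in MM1S, beside the same shares of all genes.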
